A study of Mus musculus with 42 samples.

Results

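The conjugating enzymes of phase II of drug and hormone metabolism were described in the liver, the brown fat (BAT) and the white fat (WAT) of mice given VAAM or water. The members are Tpmt and every gene whose symbol begins with Ugt1 to Ugt3, Sult1 to Sult6, or Gst of the alpha, kappa, mu, omega, pi or theta class and a number. All probe sets that the array annotation assigns to a single such gene were taken, which gave 57 of 45037 probe sets and 43 of 18193 genes. They comprised 12 probe sets of 10 UDP-glucuronosyltransferase (UGT) genes, 15 of 13 sulfotransferase (SULT) genes, 26 of 19 glutathione S-transferase (GST) genes and 4 of Tpmt. Another 5 probe sets name several genes at once and were left out by this rule. Of these, 3 cover the 8 Ugt1a genes, so no gene of the UGT1 family is among the members, and the others cover Ugt2a1 with Ugt2a2 and Gsta1 with Gsta2 and Gm3776.

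VAAM is a mixture of amino acids in the proportions found in the larval saliva of *Vespa* hornets. Male ddY mice, a closed outbred stock bought at 5 weeks of age and acclimated for 1 week, received by feeding tube a 1.8% VAAM solution (7 mice) or water (7 mice), in both cases 37.5 µL per g of body weight once a day for 5 administrations. Food was removed 2 h before the last administration from all mice, and the tissues were taken 4 h after it. Each tissue of each mouse was hybridised to an Affymetrix array of the whole mouse genome, which gave 42 arrays, 14 per tissue. The liver was kept in RNAlater and the fat was frozen, so tissue and preservation cannot be told apart. Mice given another amino acid mixture were not analysed here.

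Most phase II enzymes attach a polar group to a lipophilic substrate, so that it can leave the cell through export pumps and be cleared in bile or urine. UGTs transfer glucuronic acid from UDP-glucuronic acid, SULTs transfer sulfate from the donor PAPS, GSTs couple glutathione to electrophiles, and thiopurine methyltransferase (TPMT) methylates thiopurine drugs with S-adenosylmethionine as donor. The liver is the main site of these reactions. Adipose tissue is known for GSTA4, which conjugates the lipid peroxidation product 4-hydroxynonenal, and for the estrogen sulfotransferase SULT1E1.

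The arrays carried the markers of their tissues. All 8 measured hepatocyte markers lay between 10.98 and 15.00 in liver, in units of the deposited log2 value, whereas all but Cyp2e1 (9.69 in BAT and 13.78 in WAT) lay between 6.17 and 6.85 in BAT and between 6.06 and 7.33 in WAT. Of 6 brown adipocyte markers, 5 lay above the median level of all probe sets by more than 1 in BAT. In liver 1 did (Elovl3, 9.51), and in WAT 0 did. Among them Ucp1, the uncoupling protein of brown adipocytes, was at 6.39 in liver, 14.22 in BAT and 6.36 in WAT. Of 7 measured adipocyte markers, 7 lay above that median by more than 1 in WAT, 6 in BAT and 1 in liver. The adipocyte hormone gene Lep was the lowest of them in BAT, at 6.39 in liver, 7.14 in BAT and 10.93 in WAT. Some WAT arrays also carried RNA of epididymis markers and some BAT arrays that of skeletal muscle markers, as given beside the results they touch. Fewer cells of a type and less RNA per cell cannot be told apart in such bulk samples.

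Levels of the enzymes in the 3 tissues are given first, from the 7 water mice. The deposited value is a log scale summary in which the deviations between arrays are compressed by an amount that differs between probe sets, and its differences are not fold changes. Whether the tissues were summarized in 1 run or separately is not given in the sources used here, so the levels of different tissues are set side by side as a description. A difference of 1 or more on this scale was used to sort the genes. Each gene is represented here by its probe set with the highest mean over the 42 arrays. With limma, 57 of 57 member probe sets passed an adjusted p of 0.05 between liver and WAT and between liver and BAT, and 56 of 57 between BAT and WAT. Of all probe sets, 99.8%, 99.9% and 99.8% passed in these contrasts, so that passing says nothing particular about the members. Liver was called higher than WAT by at least 1 at 31 member probe sets (3.64% of all probe sets) and lower at 3 (9.61%). It was called higher than BAT by at least 1 at 37 (4.55%) and lower at 2 (4.98%). BAT was called higher than WAT by at least 1 at 0 members (1.78%) and lower at 6 (5.24%).

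The UGTs had the plainest pattern. All 10 UGT genes were higher in liver than in either fat by more than 1. Their water means ran between 7.10 and 13.44 in liver, between 5.66 and 6.62 in BAT and between 5.74 and 6.86 in WAT. Another probe set of Ugt3a1 was higher in BAT, at 7.01 over the VAAM and water arrays. Ugt2b36 averaged 13.44 in liver, 6.27 in BAT and 6.31 in WAT, and Ugt2b1, which glucuronidates steroids and drugs in rodents, 13.38, 6.18 and 6.11 in the same tissues. Ugt2b5, Ugt2b34, Ugt2b35, Ugt2a3, Ugt3a1 and Ugt3a2 likewise lay between 10.44 and 12.81 in liver. The least separated were Ugt2b38 (8.18 in liver, 6.39 in BAT and 6.06 in WAT) and Ugt2b37 (7.10, 5.81 and 5.94).

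The SULTs were divided. Sult2a8, of the family that sulfates hydroxysteroids and bile acids, averaged 13.30 in liver, 5.98 in BAT and 6.17 in WAT. Sult1d1 (10.48, 5.71 and 5.92), Sult1b1 (8.28, 6.01 and 5.91) and the phenol sulfotransferase Sult1a1 (11.59, 9.74 and 10.41) were also above both fats by more than 1. Sult1e1 ran the other way, at 6.06 in liver, 6.16 in BAT and 9.65 in WAT. In 7 of the 13 SULT genes (Sult1c1, Sult2a2, Sult2b1, Sult3a1, Sult4a1, Sult5a1 and Sult6b1) the tissues lay within 1 of each other, and Sult1c2 was higher in liver than in BAT alone by that margin.

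The GSTs were measured in the fats as well, with 17 of 19 genes above the median level of all probe sets in liver, 16 in BAT and 15 in WAT. Gstp1, the pi class enzyme, averaged 14.20 in liver, 12.30 in BAT and 12.31 in WAT, and Gstm1 13.22, 10.13 and 11.03. In all, 9 of 19 GST genes were above both fats by more than 1 in liver, among them Gsta2 (9.94, 6.15 and 6.01), Gstp3, Gstm3, Gstm6, Gstm7 and Gstk1. Gsta3 separated the 2 fats, with 12.65 in liver, 6.28 in BAT and 9.64 in WAT. Gsta4 was within 1 in the 3 tissues, at 10.59 in liver, 10.85 in BAT and 10.65 in WAT. Gstm5 was lower in liver (8.94) than in BAT (9.98) and WAT (10.29), Gstm2 was lower in liver (8.80) than in WAT (10.43), and Gsto2 was lower in liver (6.24) than in BAT (7.58). Gstm4 and Gstt4 were within 1 in the 3 tissues, and Gsto1 was above WAT alone by more than 1 in liver. The theta class genes Gstt1, Gstt2 and Gstt3 were each above BAT, but not above WAT, by more than 1 in liver. Tpmt averaged 9.57 in liver, 7.68 in BAT and 7.92 in WAT.

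**Figure D1:**
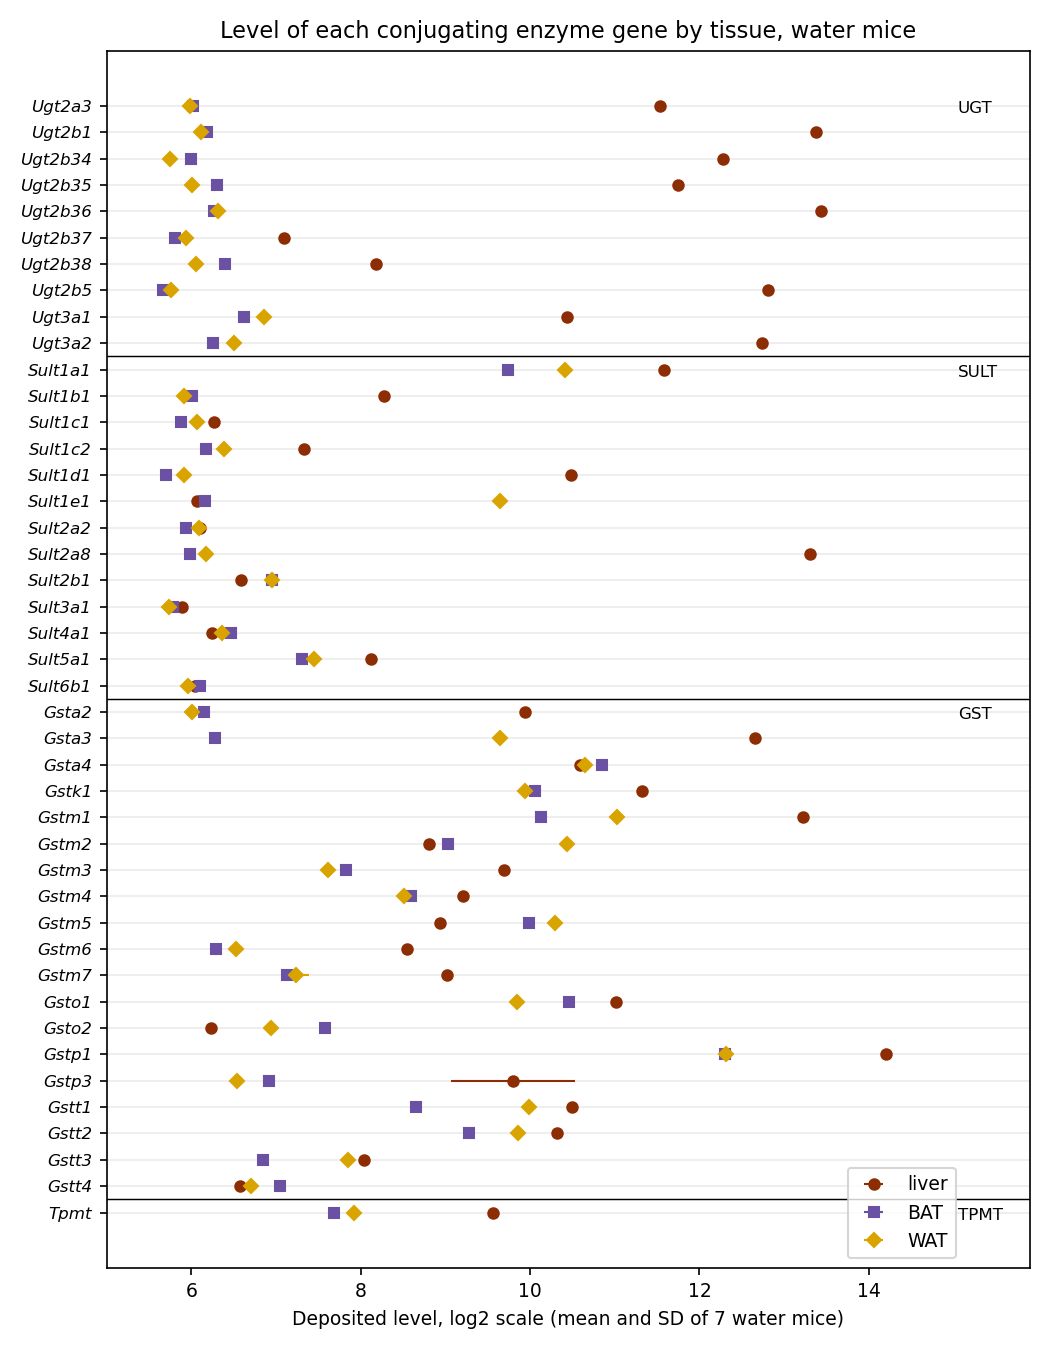
Deposited level (log2 scale, horizontal axis) of the 43 genes in liver (circles), BAT (squares) and WAT (diamonds) of water mice, as the mean with the SD of 7 mice. All 10 UGT genes lie at 7.10 or above in liver and at 6.86 or below in the fats, Sult1e1 is high in WAT alone, and the bar of Gstp3 in liver is wide (SD 0.729).

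The second question was whether VAAM shifted these enzymes within a tissue. Because of the compression, each difference is that of the group means, VAAM minus water, in units of the within-group SD of the probe set, with its standard error (SE, n = 7 mice per group). The median of this SD over the members was 0.000108 in liver, 3.69e-05 in WAT and 1.04e-05 in BAT. Most differences are therefore very small on the deposited scale. A gene with several probe sets is represented here by the one with the highest mean in the tissue at hand. No member was called at an adjusted p of 0.05 by limma in liver, WAT or BAT, and neither was any other probe set (0% in each tissue). At an unadjusted p under 0.05, liver had 0 members higher (4.17% of all probe sets) and 5 lower (4.92%), WAT had 2 higher (1.65%) and 0 lower (2.1%), and BAT had 0 higher (2.16%) and 1 lower (2.93%). In none of the 57 probe sets did the VAAM and water mice separate without overlap in any tissue, against 0.155% of all probe sets in liver, 0.0488% in WAT and 0.0955% in BAT. A member that misses the threshold is not thereby shown to be unchanged, since the SE of each difference was 0.53 SD or more.

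In liver the 5 lower probe sets were all GSTs. Gsta4 was lower by the widest margin of the 57, with a difference of -2.84 SD (SE 0.79, exact two-sided permutation p = 0.00117, limma adjusted p = 0.329). The VAAM livers had deposited values of 10.58854, 10.58839, 10.58853, 10.58843, 10.58844, 10.58840 and 10.58842, and the water livers 10.58866, 10.58868, 10.58866, 10.58860, 10.58853, 10.58875 and 10.58859. All 7 VAAM livers were below the water median, and 1 water liver, mouse 5, lay within the VAAM range. The values differ in the fourth decimal, and the median within-group SD over all liver probe sets was smaller still, 1.06e-05. After quantile normalization the difference of Gsta4 was 0. That method keeps only the rank of a probe set on its array. A difference of 0 can thus come from equal ranks, and it does not show that the groups were alike.

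Gsta2, an alpha class enzyme of the liver, had visible spread. Its VAAM livers stood at 9.92547, 9.91910, 9.92515, 9.90941, 9.92842, 9.92188 and 9.91977, and its water livers at 9.95478, 9.92179, 9.93341, 9.94693, 9.93299, 9.96385 and 9.94192. The difference was -1.90 SD (SE 0.66, exact permutation p = 0.00291, limma adjusted p = 0.364), and again all 7 VAAM livers were below the water median, with water mouse 2 inside the VAAM range. After quantile normalization the difference was -1.84 SD. A further probe set, which names Gsta1, Gsta2 and Gm3776 together, was left out.

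Gstt4, of the theta class, differed by -1.66 SD (SE 0.63, exact permutation p = 0.00991, limma adjusted p = 0.413), at a level of 6.57 that was below its BAT level of 7.04. In SD from the water mean, its VAAM livers had a lowest, median and highest value of -3.36, -1.93 and -0.21, and its water livers -1.06, -0.10 and 1.31. After quantile normalization its sign turned, to 0.16 SD. The remaining pair of probe sets falls outside the rule for named genes and was picked after its values were seen. Gstm6 differed by -1.43 SD (SE 0.61, exact permutation p = 0.0233), with 6 of 7 VAAM livers below the water median. A Gstm1 probe set with a level of 8.59 differed by -1.89 SD (SE 0.66, exact permutation p = 0.00175). The other Gstm1 probe sets did so by -0.76, -0.39 and, for the one of the highest level (13.22), -0.54 SD, so the probe sets of this gene had the same sign and different sizes.

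**Figure D2:**
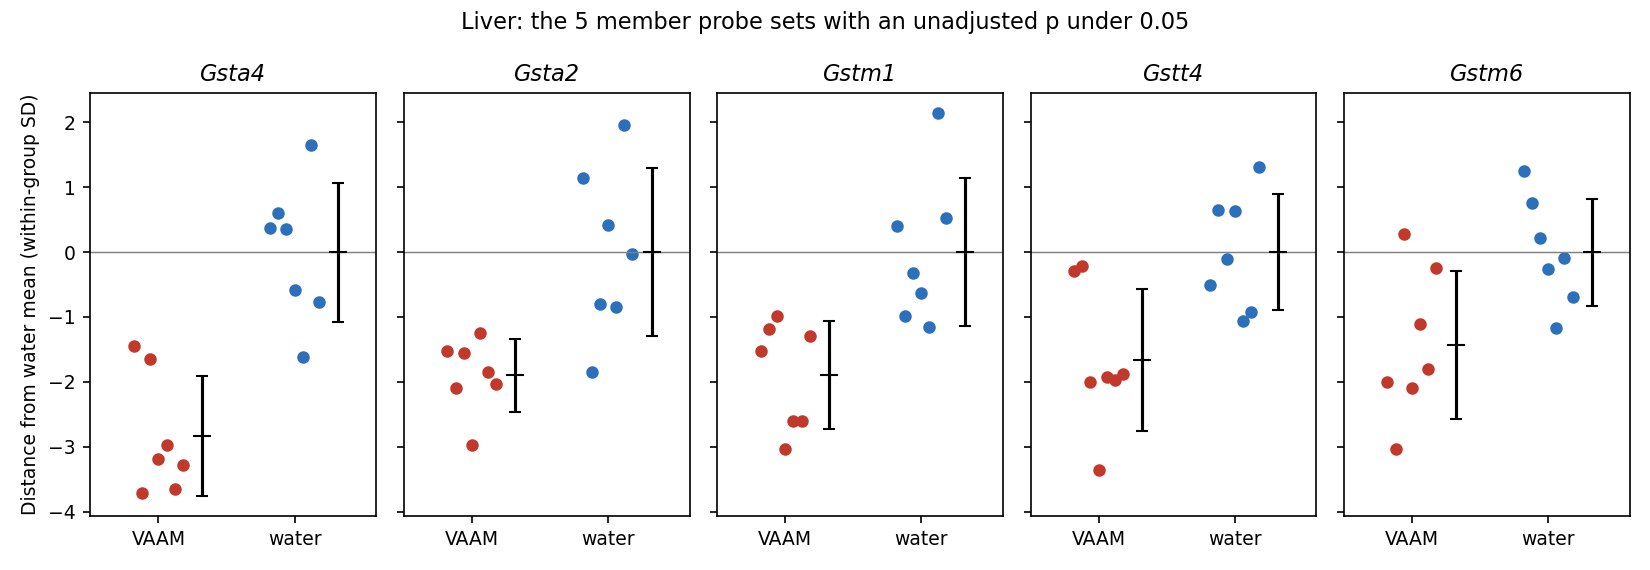
Distance of each mouse from the water mean in within-group SD (vertical axis) for the 5 member probe sets with an unadjusted limma p under 0.05 in liver, VAAM mice left (red) and water mice right (blue), 7 each, with mean and SD beside them. The Gstm1 panel is the probe set with a level of 8.59. Gsta4 shows the widest gap at -2.84 SD, and in each panel the ranges of the groups overlap.

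Across the class, 19 of 26 GST probe sets had a lower mean in VAAM livers than in water livers, while 53.3% of all probe sets did. The median GST difference was -0.51 SD against -0.05 SD over all probe sets. Marker lists of other cell types also differed between these livers, with a VAAM mean of 0.65 SD from the water mean for endothelium (6 genes) and 0.50 for macrophages (7), and of -0.52 for lymphocytes (6) and -0.50 for skeletal muscle (10), no gene of the last 2 lists being above the median level of all probe sets by more than 1. The hepatocyte list (8) was at 0.26 SD. Their part in the result was not tested. Counted by gene, 13 of 19 GSTs had a lower mean. Quantile normalization moved the median of all liver probe sets to -0.34 SD, with 32956 of 45037 lower, and left 17 of 26 GST and 35 of 57 member probe sets lower. By subclass, lower means were found in 4 of 4 alpha, 9 of 12 mu, 3 of 4 theta, 2 of 3 omega, 1 of 2 pi and 0 of 1 kappa probe sets. The probe sets of a gene, and those of near-identical paralogs in the mu class, share sequence and are not independent. Among the UGTs 10 of 12 had a lower mean, with a median of -0.33 SD, but none had an unadjusted p under 0.05. Ugt2b36 differed by -0.60 SD (SE 0.55) and Ugt2b1 by -0.42 SD (SE 0.54). Ugt2b37 had the highest UGT difference, 1.06 SD (SE 0.58, exact permutation p = 0.0711, limma adjusted p = 0.574), which turned to -0.93 SD after quantile normalization.

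The hepatic SULTs showed no common direction, with 6 of 15 lower and a median of 0.09 SD. Sult3a1 differed by 1.43 SD (SE 0.61, exact permutation p = 0.0268, limma adjusted p = 0.609), but at 5.89 in liver against 5.78 in BAT and 5.74 in WAT it was near its values in the fats, and it turned to -0.93 SD after quantile normalization. Leaving out VAAM mouse 4 gave 2.54 SD for Sult3a1. The SD of Sult3a1 in the water livers was 8.9e-07, so its difference is very small on the deposited scale. Sult5a1 differed by 0.60 SD (SE 0.55), but by 1.70 SD without water mouse 7 and 0.39 SD without water mouse 6. Sult2a8 differed by -0.28 SD (SE 0.54) and Sult1a1 by -0.01 SD (SE 0.53). The 4 Tpmt probe sets had differences of 0.33, 0.27, 0.09 and -0.03 SD, the first (SE 0.54) being that of the highest level. In that probe set water mouse 6 was at 9.54741, below the 9.56659 to 9.57306 of the other water livers. Leaving out 1 array at a time, its difference ran from -0.32 to 0.49 SD. Gstp1 and the Gstm1 probe set of the highest level were within 0.6 SD of the water mean, at 0.22 and -0.54 SD (SE 0.54 and 0.55).

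**Figure D3:**
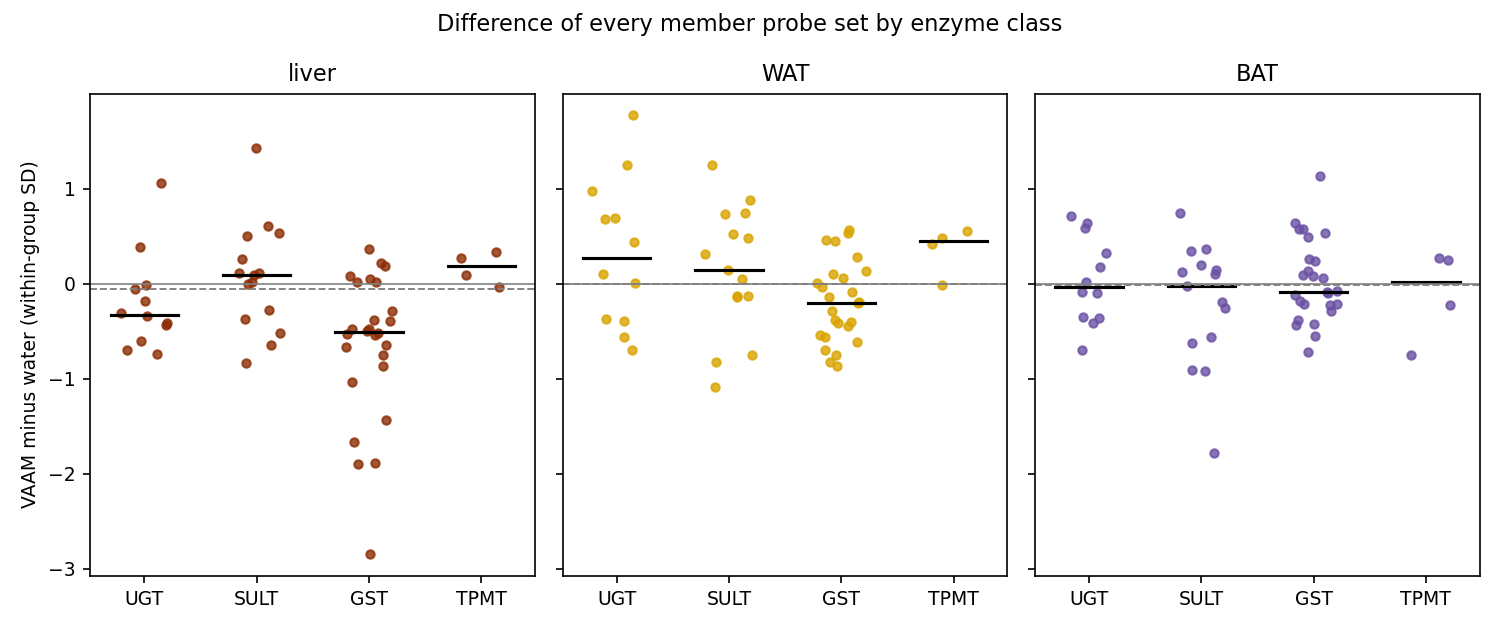
VAAM minus water in within-group SD (vertical axis) for the 57 member probe sets by enzyme class in liver, WAT and BAT. Points are probe sets, black bars class medians, the solid grey line 0 and the dashed line the median of all probe sets. The GST median of -0.51 SD in liver lies below the other class medians, and those of WAT and BAT lie nearer 0 at -0.20 and -0.08 SD.

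Gstp3 was unlike the other members in how far apart single livers were on the deposited scale. Its VAAM livers had 8.55825, 8.42111, 8.53142, 10.17355, 10.14389, 8.54004 and 8.67782 in mice 1 to 7, and its water livers 10.25541, 10.19312, 10.21311, 9.03875, 8.47580, 10.24281 and 10.15885. Livers from 8.42111 to 8.67782 and livers from 10.14389 to 10.25541 thus occurred in both groups, with 1 water liver between them, and the groups overlapped. The within-group SD was 0.761, against a median of 0.000108 over the 57 members. The VAAM mean was 9.01 and the water mean 9.80, a difference of -1.04 SD (SE 0.58, exact permutation p = 0.0583, limma adjusted p = 0.578). Gstp3 was picked after its values were seen.

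The paralog Gstp1, which lies near it on chromosome 19, had a within-group SD of 2.97e-05 in the same livers and a difference of 0.22 SD. In WAT the Gstp3 values ran between 6.53442 and 6.53450 in VAAM mice and between 6.53444 and 6.53449 in water mice. Because the compression differs between probe sets, the SDs of Gstp3 and Gstp1 in liver do not show which gene varied more between mice. Their promoters are shown as a description of 2 paralogs. The bases from -120 to -1 before the RefSeq transcript start on the minus strand (GRCm38.p6, chr19:4059448-4059567 for Gstp3 and chr19:4037913-4038032 for Gstp1) read, with matches to TGANTCA, the letters of an AP-1 element, and to GGGCGG, a GC box, in capitals:
Gstp3: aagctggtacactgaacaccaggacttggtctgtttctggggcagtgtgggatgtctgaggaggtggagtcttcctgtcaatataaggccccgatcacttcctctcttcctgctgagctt
Gstp1: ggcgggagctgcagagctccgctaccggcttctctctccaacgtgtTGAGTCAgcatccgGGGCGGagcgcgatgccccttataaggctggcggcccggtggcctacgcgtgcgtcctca

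Both strands of the 250 bases before each start were searched. Gstp1 holds TGANTCA at -74 and GGGCGG at -60, which do not overlap each other, and Gstp3 holds neither in its window. Of all 32851 promoter windows of this length, 6.75% hold TGANTCA and 32.7% hold GGGCGG, and 38 of the 43 member genes are in the table. The antioxidant response element core TGACNNNGC was found in 10.2% of all windows and in those of Gsta3, Gstm5 and Gstm7 among the members. A match is a description of letters and not a binding site.

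**Figure D4:**
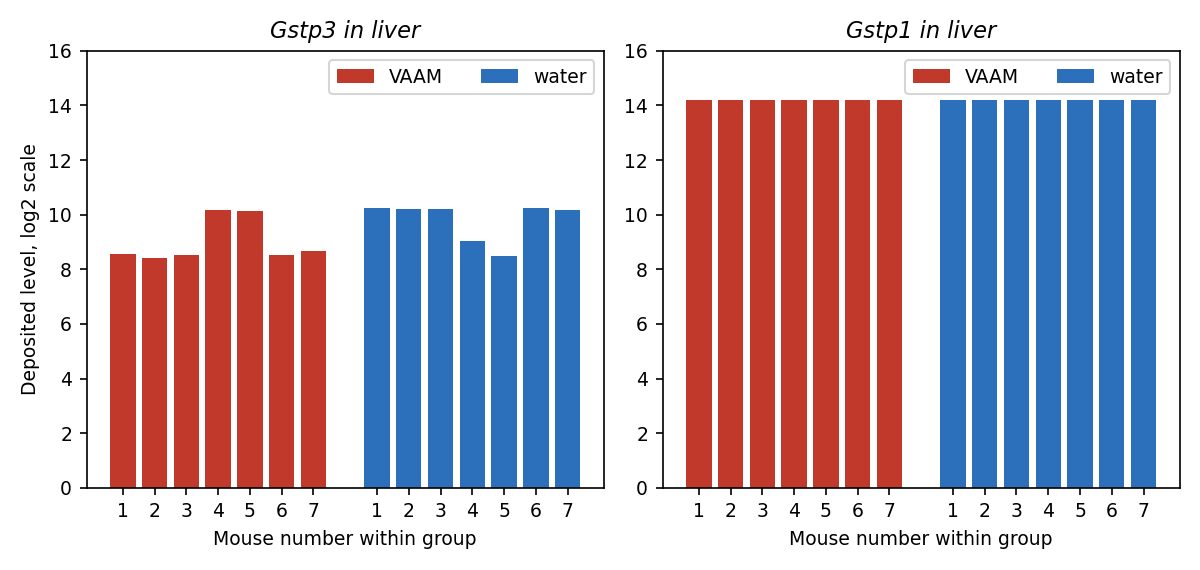
Deposited level (log2 scale, vertical axis from 0) of Gstp3 (left) and Gstp1 (right) in the liver of each mouse, VAAM mice in red and water mice in blue, numbered within their group. Gstp3 lies between 8.42111 and 10.25541 over the mice, whereas the bars of Gstp1 are level at 14.20.

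In WAT, 28 of 57 member probe sets had a lower mean under VAAM, as did 50.6% of all probe sets. After quantile normalization 48 of 57 members and 43197 of 45037 probe sets were lower, with a median of -0.54 SD over all probe sets. Both members with an unadjusted p under 0.05 were higher. Ugt2b38 differed by 1.77 SD (SE 0.65, exact permutation p = 0.00787, limma adjusted p = 0.9998), and the water median was exceeded by 7 of 7 VAAM mice. In SD from the water mean its VAAM mice had a lowest, median and highest value of 0.30, 1.87 and 3.13, and its water mice -0.98, -0.17 and 1.55. Sult1b1, a sulfotransferase of phenols and thyroid hormones, differed by 1.25 SD (SE 0.59, exact permutation p = 0.0367, limma adjusted p = 0.9998). Ugt2b37 had the same difference of 1.25 SD (SE 0.59, exact permutation p = 0.0382) but a limma p above 0.05, and was at 2.94 SD without water mouse 5 and at 1.10 SD without water mouse 7. Ugt2b38, Sult1b1 and Ugt2b37 were at 8.18, 8.28 and 7.10 in liver, against 6.06, 5.91 and 5.94 in WAT. These WAT levels are at the 9.57, 4.91 and 5.78 percentiles of all probe sets. The SDs of their water mice in WAT were 4.2e-06, 9.1e-06 and 1.9e-06, so the differences are very small on the deposited scale. The signs of these differences turned after quantile normalization, to -0.63, -0.48 and -0.52 SD. Of the UGTs as a class, 4 of 12 had a lower mean, and the median was 0.27 SD.

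At the low end in WAT stood Sult6b1 (-1.09 SD, SE 0.58), Gstm3 (-0.87 SD, SE 0.56) and Sult1a1 (-0.75 SD, SE 0.56), none with an exact permutation p under 0.05. Of the genes chosen by level, Sult1e1 differed by 0.31 SD (SE 0.54), Gstp1 by 0.28 SD (SE 0.54), Gstm1 by -0.70 SD (SE 0.55), Ugt3a1 by 0.10 SD (SE 0.53) and Ugt3a2 by -0.70 SD (SE 0.55). Gsta4 differed by -0.56 SD (SE 0.55), with VAAM mouse 1 at 10.65003 below the 10.65037 to 10.65053 of the other VAAM mice and the 10.65040 to 10.65056 of the water mice. Without VAAM mouse 1 the difference was -0.17 SD. The 4 Tpmt probe sets lay between -0.02 and 0.55 SD.

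On the deposited scale, the member probe sets that spread most between WAT samples were from GSTs of the mu class. They were picked after their values were seen. Gstm7 had 7.70717, 7.32621, 7.40232, 7.42188, 7.28566, 7.19005 and 7.02701 in VAAM mice 1 to 7, and 7.42834, 7.39498, 7.03533, 7.25971, 7.16160, 7.04159 and 7.30094 in water mice 1 to 7. The groups overlapped, with VAAM mouse 1 above all 7 water mice, and the difference was 0.56 SD (SE 0.55, exact permutation p = 0.305). The other Gstm7 probe set showed none of this spread, with values between 6.96177 and 6.96188 in VAAM mice and between 6.96178 and 6.96186 in water mice and a difference of -0.09 SD (SE 0.53), so the 2 probe sets of this gene disagree. Gstm6 differed by 0.45 SD and Gstm5 by 0.53 SD (SE 0.54 and 0.55). Sult1d1 followed with a within-group SD of 0.0110 and Sult1e1 with 0.00577, against a median of 3.69e-05 over the members.

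Markers of the epididymis, which adjoins the gonadal fat pad, varied between the same WAT arrays. Of 12 listed, 10 were measured, 7 of them above the median level of all probe sets by more than 1. Their summed level ran between 76.5 and 122.9 in VAAM mice and between 71.5 and 113.5 in water mice. VAAM mouse 1 had the highest mean of this list, 2.08 SD from the water mean, followed by water mouse 1 at 1.46 and water mouse 2 at 0.77. VAAM mouse 1 was also the highest in Gstm7 and in Gstm6 (6.63131), and water mice 1 and 2 came next in Gstm6 (6.58362 and 6.57424). In Gstm5 VAAM mouse 4 was highest, at 10.33309. Without VAAM mouse 1 and water mice 1 and 2, 2 WAT members were higher (2.22% of all probe sets) and 0 lower (3.65%) at an unadjusted p under 0.05, and 28 of 57 members had a lower mean, as did 54.7% of all probe sets. The part of epididymal RNA in the spread of the mu class genes was not tested.

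**Figure D5:**
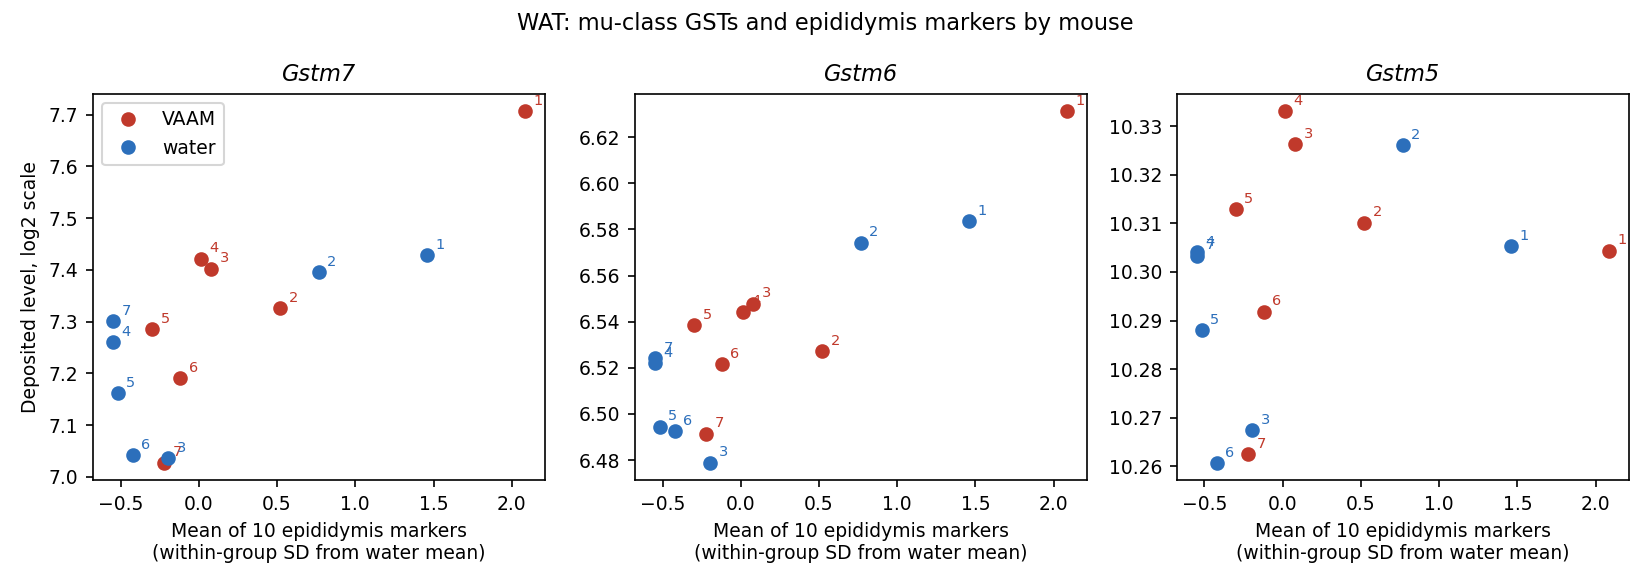
Deposited level (log2 scale, vertical axis) of Gstm7 (the probe set of the higher level), Gstm6 and Gstm5 in WAT against the mean of the 10 measured epididymis markers in within-group SD from the water mean (horizontal axis), for VAAM mice (red) and water mice (blue), numbered within their group. VAAM mouse 1, at 2.08 on the horizontal axis, is the highest point for Gstm7 and Gstm6 and not for Gstm5.

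In BAT, 30 of 57 member probe sets had a lower mean under VAAM, as did 51.4% of all probe sets, and the medians of the UGT, SULT and GST classes were -0.04, -0.03 and -0.08 SD. After quantile normalization 50 of 57 members and 39776 of 45037 probe sets were lower, with a median of -0.21 SD over all probe sets. Sult2b1, which sulfates cholesterol, was the 1 member with an unadjusted p under 0.05, at -1.78 SD (SE 0.65, exact permutation p = 0.00699, limma adjusted p = 0.926). Its VAAM mice had a lowest, median and highest value of -2.98, -1.96 and -0.19 SD from the water mean, and its water mice -1.57, 0.06 and 1.67. All 7 VAAM mice were below the water median, but after quantile normalization the difference was 0.11 SD. The SD of Sult2b1 in the BAT of water mice was 2.4e-06, so the difference is very small on the deposited scale. The next lowest genes were Sult1d1 (-0.92 SD, SE 0.57) and Sult1c2 (-0.91 SD, SE 0.57), and the highest were Gstp3 (1.13 SD, SE 0.58, exact permutation p = 0.0524), Sult6b1 (0.74 SD, SE 0.56) and Ugt2b1 (0.72 SD, SE 0.55). Sult1d1 was at -1.70 SD without VAAM mouse 7, and Sult1c2 at -2.06 SD without VAAM mouse 5.

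Gsta4 differed by -0.42 SD (SE 0.54) in BAT, with VAAM values between 10.85257 and 10.85264 and water values between 10.85261 and 10.85264. Among the genes chosen by level, Gstp1 (-0.08 SD), Gsto1 (-0.18 SD), Sult1a1 (0.12 SD), Sult5a1 (0.20 SD), Ugt3a1 (0.01 SD) and Ugt2b38 (0.33 SD) all had an SE of 0.53 or 0.54. The 4 Tpmt probe sets lay between -0.75 and 0.27 SD. Skeletal muscle markers (10 of 10 measured) differed widely between BAT arrays, with a summed level between 67.1 and 105.8 in VAAM mice and between 68.2 and 108.7 in water mice, and were high in VAAM mice 1, 5 and 7 and water mice 1 and 3. Without these 5 arrays Sult2b1 differed by -2.49 SD, Sult1d1 by -2.03 SD and Sult1c2 by -2.08 SD, and 0 members were higher (1.71% of all probe sets) and 3 instead of 1 lower (2.61%) at an unadjusted p under 0.05. The part of muscle RNA in these values was not tested.

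Whether the difference of a gene itself differed between tissues was tested on values scaled to unit SD. This scaling takes the SD of each probe set as known, which makes the p values too small. The fit also had no term for the mouse. For Gsta4 the difference in liver minus that in WAT was -2.28 SD (limma adjusted p = 0.180) and the difference in liver minus that in BAT was -2.42 SD (limma adjusted p = 0.181). No member passed an adjusted p of 0.05 in any of the 3 contrasts, in which 0.249% (liver minus WAT), 0.153% (liver minus BAT) and 0.02% (BAT minus WAT) of all probe sets passed.

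Rank products, the test named in the methods of the study, gave other counts on the same values. In liver it called 19 members at a false discovery rate under 0.05 (4.16% of all probe sets), 17 lower and 4 higher, 2 of them in both directions. It called 7 members in WAT (3.64%), 6 of them higher, and 0 in BAT (4.33%). Among the calls in liver were Gsta4, Gsta2 and Gstp3 as lower, and among those in WAT Gstm7, Gstm6 and Gstm5 as higher. The called members were largely those of wide spread. In liver their median within-group SD was 0.00138, against 5.37e-05 for the members not called, and 15 of the 19 were among the 19 members of the widest spread. In WAT 6 of 7 were. With every probe set scaled to unit SD, rank products called 1 member in liver, Gsta4 (0.859%), 0 in WAT (0.167%) and 0 in BAT (0.344%).

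The enzymes that supply and follow these reactions were taken from 3 lists. None of their genes passed an adjusted p of 0.05 with limma in any tissue. Of 16 measured genes for cofactor and donor synthesis, 0 had an unadjusted p under 0.05 as higher and 2 as lower in liver, with a median of -0.11 SD. These were Ugdh, which makes UDP-glucuronic acid, at -1.32 SD (SE 0.60, exact permutation p = 0.0262), and Ggt6, of the gamma-glutamyltransferase family, at -1.26 SD (SE 0.59, exact permutation p = 0.0414). The highest of the list in liver was the glutathione synthetase gene Gss, at 0.72 SD (SE 0.55). In WAT the list had 1 gene higher and 1 lower and a median of 0.07 SD. Mat1a, an S-adenosylmethionine synthetase gene of the liver, differed by 1.90 SD (SE 0.66, exact permutation p = 0.000874) at a WAT level of 6.10, and Ugp2, which makes UDP-glucose, by -1.18 SD (SE 0.59, exact permutation p = 0.0134). In BAT it had 0 in either direction and a median of -0.11 SD, with Ggt6 highest at 1.02 SD and Ugp2 lowest at -0.78 SD (SE 0.57 and 0.56).

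Of 20 measured other conjugating and allied enzymes, an unadjusted p under 0.05 was found in liver for 1 higher and 1 lower gene, with a median of -0.16 SD. Nnmt, the nicotinamide N-methyltransferase gene, differed by 1.34 SD (SE 0.60, exact permutation p = 0.0344) and the zeta class GST gene Gstz1, an enzyme of tyrosine breakdown, by -1.37 SD (SE 0.60, exact permutation p = 0.0265). In WAT there were 0 in either direction, with a median of -0.02 SD, Hpgds highest at 1.03 SD and Nqo2 lowest at -0.60 SD (SE 0.57 and 0.55). In BAT 2 were higher and 0 lower, with a median of 0.08 SD. They were Nnmt at 2.23 SD (SE 0.70, exact permutation p = 0.00233, limma adjusted p = 0.901) and the microsomal GST gene Mgst1 at 1.58 SD (SE 0.62, exact permutation p = 0.00874), and in both all 7 VAAM mice were above the water median. Baat was lowest there, at -0.88 SD (SE 0.56).

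Of 15 measured regulators and export pumps, an unadjusted p under 0.05 was found in liver for 2 higher and 0 lower genes, with a median of 0.26 SD. They were Rxra, the partner of the xenobiotic and lipid nuclear receptors, at 1.92 SD (SE 0.66, exact permutation p = 0.0035, limma adjusted p = 0.364), and Nfe2l2, which encodes the oxidative stress factor NRF2, at 1.22 SD (SE 0.59, exact permutation p = 0.046). The export pump gene Abcc3 was lowest, at -0.87 SD (SE 0.56). In WAT 0 were higher and 1 lower, the export pump gene Abcg2 at -1.66 SD (SE 0.63, exact permutation p = 0.0117), with a list median of -0.22 SD and Abcc3 highest at 0.69 SD (SE 0.55). In BAT 0 were higher and 1 lower, with a median of -0.13 SD. That gene was Keap1, which holds NRF2 in check, at -1.56 SD (SE 0.62, exact permutation p = 0.0186, limma adjusted p = 0.933), and Nfe2l2 was highest at 1.09 SD (SE 0.58).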

How the data were processed

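RNA of 3 tissues from 7 VAAM and 7 water mice was measured on 42 arrays. The deposited values are log2 summaries per probe set, made by the authors with distribution free weighting (DFW), and their processing notes name R 2.7.2. They are on a log scale of unstated base, here read as 2, and the number of arrays limits the precision. The tests between tissues called almost every probe set, and whether the tissues were summarized in 1 run or separately is not given in the sources used here. The table holds 45101 probe sets, 64 of them controls. No filter was applied. Genes were named from the platform annotation, and all 57 members kept their symbols in RefSeq.

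Groups were compared with limma 3.58.1 in R 4.3.3 over 45037 probe sets (Benjamini-Hochberg, 0.05), which was tested on simulated data. The SE of a difference d was the square root of 1/7 + 1/7 + d²/24. Exact permutation p values are two-sided over 3432 splits (smallest 0.000583). Rank products used 49 pairs of arrays and 50 permutations in Python 3.11.15. Within a tissue, replicates are separate mice. The main contrasts between tissues had no term for the mouse, although the 3 tissues came from the same mice.

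The members, the pathway lists and the marker lists were chosen with earlier results of these data known. Named genes were, per tissue, the 3 highest and 3 lowest differences, 2 of each class by level, Tpmt, Gsta4, and the ends of each pathway list. Alternatives were a replicate block, quantile normalization, a filter, other priors, array weights, 1 fit over 42 arrays, rank products, gene means and leaving out each array. Leaving out 3 WAT and 5 BAT arrays was added after the data were seen. Gstm6 and 1 Gstm1 probe set in liver, Gstp3 in liver, Gstm5, Gstm6 and Gstm7 in WAT, and Ggt6 and Nfe2l2 in liver and Mgst1 in BAT were also named after their values were seen. Promoters came from RefSeq (GRCm38.p6).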

Additional observations from a re-analysis of the deposited data

Results flagged for a closer look

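In groups of 7 mice, a mouse was taken to stand apart where its gap to the nearest other mouse, as a share of the group's whole range, was above Dixon's critical value for that number. This held in 13 of the 80 groups tested (40 pairs of a named gene and a tissue), and chance flags about 1 in 20 groups. Tpmt was lowest in water mouse 6 in each tissue, with a gap of 0.748 of the range in liver (9.54741, group median 9.56983), 0.710 in WAT (7.91219, median 7.91623) and 0.796 in BAT (7.67958, median 7.68204). The labels do not say whether arrays of the same number come from the same mouse. Water mouse 6 was also lowest for Ugt2b1 in liver (0.633), Sult1b1 in WAT (0.589), Sult1c2 in BAT (0.659) and Gstp3 in BAT (0.599). The highest mouse stood apart for Sult5a1 in liver (water mouse 7, 0.637), Ugt2b37 in WAT (water mouse 5, 0.670), Sult1d1 in BAT (water mouse 4, 0.627) and Gstp1 in WAT (VAAM mouse 6, 0.586, and water mouse 5, 0.636). Gsta4 in WAT was lowest in VAAM mouse 1 (0.684), the array with the highest mean of the epididymis markers (2.08 SD from the water mean). Its adipocyte, endothelium and macrophage lists were at -2.75, -2.67 and -1.58 SD, and their part in the Gsta4 value was not tested.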

How the results depend on the processing

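With limma fitted in each tissue, no alternative called a member at an adjusted p of 0.05. A single fit over the 42 arrays called 3 members in liver (326 higher and 365 lower probe sets in all, 1.53%), among them Gsta4 in liver (limma adjusted p = 0.0237) and Gsta2 in liver (limma adjusted p = 0.000502), and rank products called 19 in liver and 7 in WAT on the deposited scale and 1 in liver on the unit SD scale. The single fit pools the spread of the 3 tissues. In water mice the SD of Gsta2 was 0.0143 in liver, 0.000374 in WAT and 1.01e-06 in BAT. The residual of Gsta2 in the single fit thus includes the smaller spread of the fats, and its call does not rest on liver spread alone. For Gsta4 the part of each tissue in the residual was not tested. The count with an unadjusted p under 0.05 was 5 in liver, but 3 after quantile normalization and 8 in the single fit. In WAT it was 2, but 0 after quantile normalization and 0 with only probe sets above the median level, and 3 with a trend and robust prior (3 higher) and in the single fit (1 higher, 2 lower). In BAT it was 1, but 0 after quantile normalization, 0 in the single fit, 2 with array weights and 3 without the 5 arrays high in muscle markers. Members with a lower mean numbered 28 in WAT and 30 in BAT, but 48 and 50 after quantile normalization and 16 in either fat with only probe sets above the median level, where fewer were tested. In BAT 14 GST probe sets were lower, but 23 after quantile normalization. Between BAT and WAT 56 members were called, but 28 of the 29 tested with the filter, and 0 were higher by at least 1, but 1 after quantile normalization.

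Of 264 values of named genes under alternatives other than leaving out 1 array, 26 turned sign, 3 became 0, 2 passed the threshold and 233 kept their sign and side. Quantile normalization gave 0 for Gsta4, Ugt2b36 and Sult2a8 in liver, which can come from equal ranks on every array. It turned Gstt4 to 0.16, Gstm1 to 0.45, Ugt2b37 to -0.93 and Sult3a1 to -0.93 SD in liver. In WAT it turned Sult1b1 to -0.48, Ugt2b37 to -0.52, Ugt2b38 to -0.63, Tpmt to -0.25, Ugt3a1 to -0.53, Gstp1 to -0.26 SD, and Gstm1 in WAT to 0.00442 SD. In BAT it turned Sult2b1 to 0.11, Ugt2b1 to -0.065, Sult6b1 to -0.29, Tpmt to -0.18, Ugt2b38 to -0.27, Sult1a1 to -0.47 and Sult5a1 to -0.15 SD. Array weights turned Sult1a1 in liver to 0.00743 SD. The mean of all probe sets turned Ugt3a1 to -0.20 in WAT and -0.054 in BAT, and Tpmt in BAT to -0.14 SD. Without the 5 BAT arrays Tpmt was at -0.026, Ugt3a1 at -0.069, Sult1a1 at -0.23 and Gsto1 at 0.12 SD. Quantile normalization moved the median of all probe sets to -0.34 SD in liver, -0.54 SD in WAT and -0.21 SD in BAT. The cause of these turns was not tested.

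The replicate block, with the number of the labels as a term, changed no call at an adjusted p of 0.05 among the members. It gave 5 members with an unadjusted p under 0.05 in liver, 3 in WAT and 2 in BAT. VAAM and water mice of the same number are different animals, and their deviations correlated between -0.19 and 0.48, so the numbers were not taken as pairs.

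Leaving out 1 array at a time, the count with an unadjusted p under 0.05 ran from 5 to 7 in liver and from 1 to 3 in WAT and BAT. It was 1 in WAT without water mouse 6, water mouse 7, VAAM mouse 3 or VAAM mouse 4. In BAT it was 2 without water mouse 2 or 5 or VAAM mouse 4, 6 or 7, and 3 without VAAM mouse 5. Gsta4 in liver ran from -3.44 to -2.67 SD and Gsta2 from -2.59 to -1.75 SD. Other ranges without a change of sign included those of Sult3a1 (1.27 to 2.54), Sult5a1 (0.39 to 1.70), Gstm1 (-0.85 to -0.33) and Ugt2b36 (-1.04 to -0.31 SD) in liver. In WAT they included Ugt2b37 (1.10 to 2.94), Sult6b1 (-1.84 to -0.91), Ugt3a2 (-1.10 to -0.51), Gstm1 (-1.05 to -0.50) and Gsta4 (-0.72 to -0.17 SD). In BAT they included Sult1c2 (-2.06 to -0.71), Sult1d1 (-1.70 to -0.73) and Sult6b1 (0.54 to 1.17 SD). Values that turned sign were those near 0. In liver they ran from -0.32 to 0.49 (Tpmt), -0.29 to 0.24 (Sult1a1) and -0.058 to 0.54 SD (Gstp1), and in WAT from -0.15 to 0.38 (Ugt3a1) and -0.034 to 0.89 SD (Gstp1). In BAT they ran from -0.37 to 0.44 (Tpmt), -0.19 to 0.54 (Ugt3a1), -0.021 to 0.64 (Ugt2b38), -0.11 to 0.42 (Sult1a1), -0.065 to 0.48 (Sult5a1), -0.30 to 0.37 (Gstp1) and -0.49 to 0.23 SD (Gsto1).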
